A study of Mus musculus with 6 samples.

Results

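This account concerns 31 genes of sterol and fatty acid synthesis, of 55401 genes listed in the count table, in F4/80+ cells sorted from mouse liver tumours. The members were chosen by gene symbol: 21 act in sterol synthesis and its control, and 10 in fatty acid synthesis, elongation and desaturation. All 31 passed the low-count filter that kept 18277 genes for testing. The tumours had been seeded by injecting Hepa 1-6 cells, a mouse hepatoma line, into the right lobe of the liver, and were taken 14 days later. In the Sms-OE group (3 libraries) the injected cells overexpressed Sms, the gene of spermine synthase, from a lentivirus, and in the control group (3 libraries, genotype given as WT Control) they were control cells. The overexpression is thus a property of the injected tumour cells, not of the sorted cells. Neither group received any further treatment, and the labels used here give no strain, sex or age of the mice. Nor do they say whether libraries of a group are different mice; the p-values therefore reflect the spread between these libraries alone, which may be technical.

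Sterols are built from acetyl-CoA through mevalonate, the isoprenoids and squalene to lanosterol, which a further series of enzymes turns into cholesterol. Fatty acids are built from the same acetyl-CoA by acetyl-CoA carboxylase and fatty acid synthase, then lengthened by elongases and given double bonds by desaturases. Both sets of genes are switched on by the SREBP transcription factors, SREBP-2 mainly the sterol genes and SREBP-1 mainly the fatty acid genes, and sterols hold the SREBPs in the endoplasmic reticulum through Scap and Insig. Macrophages balance this synthesis against uptake of lipoproteins and export through ABCA1, whose gene the oxysterol receptors LXR switch on.

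Libraries held 49833764 to 51123047 estimated counts in Sms-OE and 51583985 to 58154006 in the controls. Levels are given as CPM, which are counts scaled to a common library size after TMM normalization. Macrophage markers summed to 6510 to 7633 CPM in Sms-OE and 6008 to 6194 CPM in the controls, with Adgre1, the gene of F4/80, at 521, 660 and 529 CPM in Sms-OE and 334, 474 and 539 CPM in the controls. The 8 markers of that sum went both ways. At an adjusted p under 0.05 by edgeR, Itgam and Cd14 rose (log2 0.60 and 0.73), Cd68 fell (log2 -0.35) and 5, among them Adgre1, did not pass. Sms itself stood at 32.9, 33.2 and 33.2 CPM in Sms-OE and 26.0, 28.3 and 26.2 CPM in the controls, a log2 fold change of 0.30 ± 0.094 (SE, adjusted p = 0.0382 by edgeR). That value describes the RNA of these libraries and does not test the overexpression in the injected cells. The libraries also held RNA of hepatoma markers, such as Afp at 46.3 to 68.4 CPM. Which cells the Sms difference came from was not tested. Sms-OE replicates 2 and 3 stood apart in haemoglobin RNA, at 0.485% and 0.512% of counts, against 0.0225% in Sms-OE replicate 1 and 0.00441% to 0.0172% in the controls.

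Sterol synthesis genes were lower in Sms-OE along most of the pathway. Of the 31 members, 19 fell and 0 rose at an adjusted p under 0.05 in edgeR's quasi-likelihood test, where 14.3% of all genes tested were lower and 12.5% higher. Among the 11163 genes with a mean of at least 3.38 CPM, the lowest mean of any member, 20.7% were lower and 16.5% higher. At an unadjusted p under 0.05 the test gave 20 members, all lower, where 3673 of all 18277 genes were lower and 3325 higher. Neither the DESeq2 Wald test nor limma-voom called any member higher. Of the 21 sterol genes 16 fell, with a median log2 fold change of -0.60 over all 21 (a 1.51-fold lower level in Sms-OE), and in the same 16 every Sms-OE value lay below every control value, a separation seen in 23.3% of all genes. Of the 10 fatty acid genes 3 fell, Scd2, Fads1 and Fads2, with a median of -0.35 over the 10. The median over all genes tested was 0.00. In these bulk libraries fewer cells of a type and less RNA per cell cannot be told apart.

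**Figure D1:**
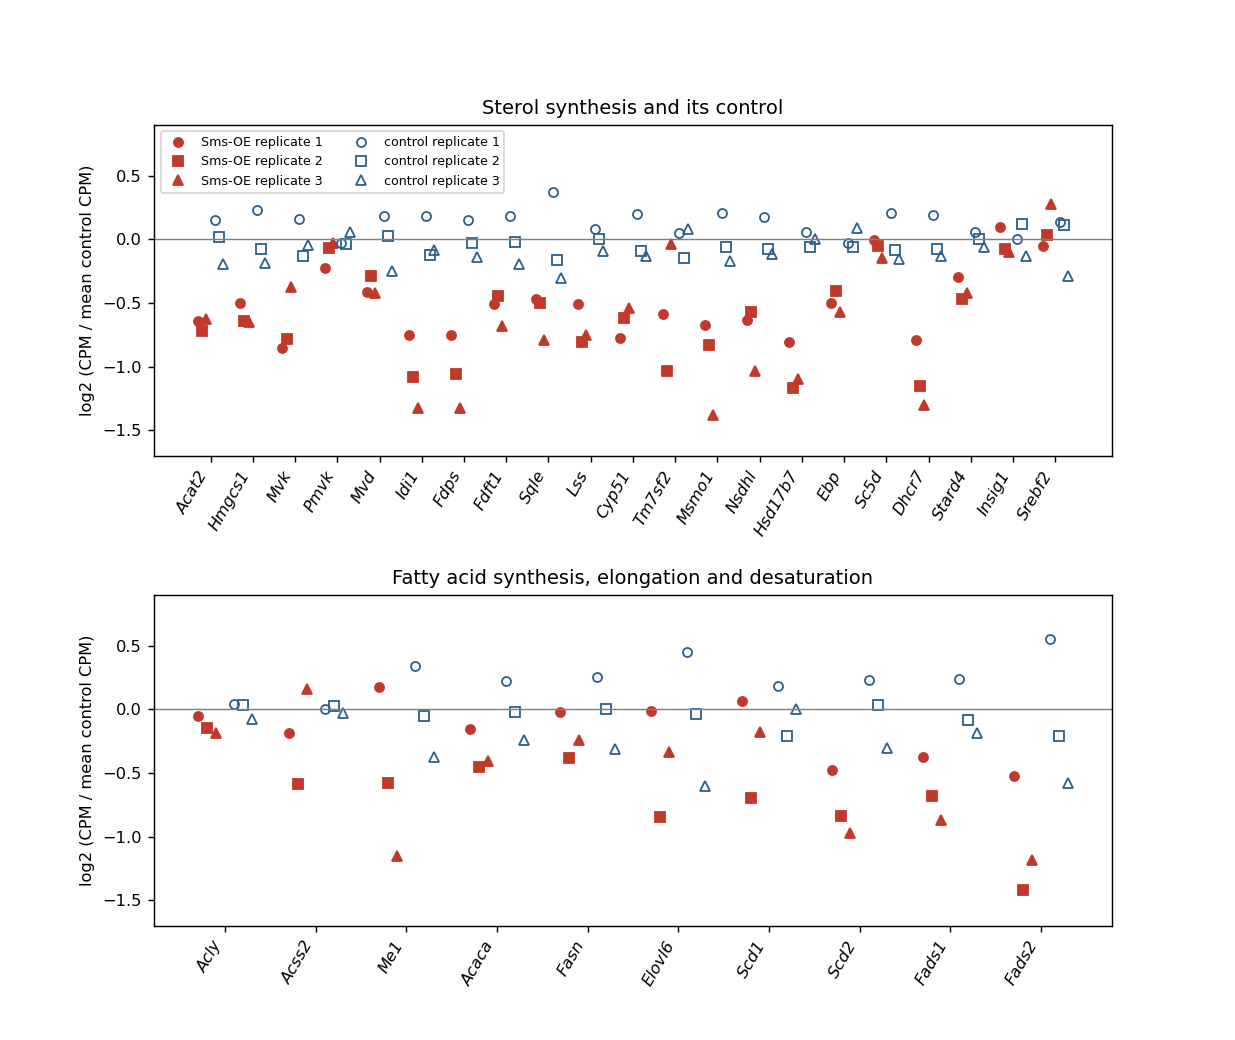
Level of each member in each library as log2 of its CPM over the mean CPM of the 3 control libraries, with Sms-OE libraries as filled red symbols and control libraries as open blue symbols, and with circles, squares and triangles for replicates 1, 2 and 3. Sms-OE symbols lie below all control symbols for 16 of 21 sterol genes (upper panel) and for Scd2 and Fads1 among the 10 fatty acid genes (lower panel), and those of Insig1 and Srebf2 overlap the control symbols.

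The promoters of these genes were searched for letters that SREBPs and their partners are known to bind, and for a looser form of the SREBP letters. The windows below show, for the few members that had one, a match to the looser form with its nearest CCAAT box. RefSeq promoters (GRCm38.p6, 250 bases before to 50 after each start) were matched by symbol for 24 of the 31 members; Fdps, Fdft1, Sqle, Stard4, Fads1, Scd1 and Scd2 had no entry. The sterol regulatory element TCACNCCAC, searched on both strands, occurred in 1 of the 24, Hmgcs1, and in 1.44% of 27025 genes. A looser form, TCACNCNA, which also takes in every TCACNCCAC match and was chosen after the promoters had been read, occurred in 6 of 24 and in 12.5% of genes. Those 6 are printed 5′ to 3′ on the gene's own strand, with the TCACNCNA match and the nearest CCAAT box (ATTGG on the other strand) in capitals.
Hmgcs1, chr13:119690165-119690231, plus strand: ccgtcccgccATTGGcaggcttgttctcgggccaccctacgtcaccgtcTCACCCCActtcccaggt
Msmo1, chr8:64733724-64733765, minus strand: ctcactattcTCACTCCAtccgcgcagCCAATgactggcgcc
Nsdhl, chrX:72918306-72918426, plus strand: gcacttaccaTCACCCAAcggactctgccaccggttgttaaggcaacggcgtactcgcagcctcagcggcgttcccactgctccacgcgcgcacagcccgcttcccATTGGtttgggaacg
Srebf2, chr15:82147097-82147148, plus strand: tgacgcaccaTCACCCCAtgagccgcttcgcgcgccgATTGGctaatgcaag
Fasn, chr11:120824623-120824685, minus strand: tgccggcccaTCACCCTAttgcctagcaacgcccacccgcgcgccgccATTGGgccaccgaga
Acss2, chr2:155517960-155518029, plus strand: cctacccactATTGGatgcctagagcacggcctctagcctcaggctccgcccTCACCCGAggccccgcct

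Of these 6 genes Hmgcs1, Msmo1 and Nsdhl fell in Sms-OE, while Srebf2, Fasn and Acss2 did not pass the test. The looser match thus stood in 3 of the 13 matched members that fell and in 3 of the 11 that did not pass. The CCAAT box, which NF-Y binds, was found in 11 of the 13 and in 9 of the 11, against 41.1% of all genes. GGGCGG, the letters of the GC box bound by Sp1, was found in all 13 members that fell and in 7 of the 11 others, against 38.2% of all genes. By list, CCAAT and GGGCGG were each present in 16 of 17 matched sterol genes and in 4 of 7 matched fatty acid genes. The E-box CACGTG occurred in 4 of 24 members and in 8.09% of genes. The shares over genes given here are of the 27025 genes with a promoter entry, whether or not they were expressed in these libraries. Shares among expressed genes alone were not taken. Such matches describe letters in these windows and not binding.

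The listed genes of the first steps from acetyl-CoA towards sterols were lower. Acat2, which joins a pair of acetyl-CoA molecules in the cytosol, had 8.88, 8.39 and 8.95 CPM in Sms-OE and 15.4, 14.0 and 12.1 CPM in the controls. Hmgcs1, which makes HMG-CoA, had 34.1, 31 and 30.8 CPM in Sms-OE and 56.6, 45.9 and 42.5 CPM in the controls. For both genes the groups were apart, with a log2 fold change of -0.67 ± 0.14 (adjusted p = 0.00757) for Acat2 and -0.60 ± 0.12 (adjusted p = 0.00556) for Hmgcs1. The Acat2 count is less certain, because 45.9% of the 50-base stretches of its longest transcript also occur in the related gene Acat3, which had under 2 CPM in every library.

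Of the enzymes that phosphorylate and decarboxylate mevalonate, Mvk and Mvd fell and Pmvk did not pass. Mvk, mevalonate kinase, had 4.86, 5.10 and 6.78 CPM in Sms-OE and 9.83, 8.04 and 8.52 CPM in the controls (log2 -0.66 ± 0.19, adjusted p = 0.0273). Mvd, which makes isopentenyl diphosphate, had 26.5, 28.9 and 26.4 CPM in Sms-OE and 40.2, 36.1 and 29.8 CPM in the controls (log2 -0.37 ± 0.12, adjusted p = 0.0452), so its groups were separated by less than 1 CPM. Pmvk, phosphomevalonate kinase, lies between them in the pathway and did not pass: it had 30.5, 34.0 and 34.9 CPM in Sms-OE and 34.9, 34.8 and 37.1 CPM in the controls, a log2 fold change of -0.10 ± 0.097 (adjusted p = 0.476). Both calls were fragile. Mvk kept its call in 1 of the 6 fits that left out a single library, the one without Sms-OE replicate 3, and Mvd in 1, the one without control replicate 3.

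The isoprenoid steps were among the lowest. Idi1, which isomerizes isopentenyl diphosphate (chromosome 13, 8885501 to 8892451, GRCm38), had 18.0, 14.3 and 12.1 CPM in Sms-OE and 34.5, 27.9 and 28.6 CPM in the controls. Fdps, farnesyl diphosphate synthase (chromosome 3, 89093588 to 89101959), had 28.7, 23.3 and 19.3 CPM in Sms-OE and 53.8, 47.5 and 44.0 CPM in the controls. Every Sms-OE value of either gene was well under the lowest control value. The log2 fold changes were -1.04 ± 0.16 for Idi1 (2.05-fold lower, adjusted p = 0.00161) and -1.03 ± 0.15 for Fdps (2.04-fold lower, adjusted p = 0.00119). Within each library the CPM of Fdps was 0.841, 0.750 and 0.625 times that of Hmgcs1 in Sms-OE and 0.952, 1.03 and 1.04 times in the controls. These ratios did not overlap between the groups, but the difference between both genes' changes was not tested. Of the 50-base stretches of Idi1, 21.3% also occur in Gm13502, which had under 3 CPM in every library, and of those of Fdps 11.7% in Gm43738, listed at 0.

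All 3 genes from squalene to lanosterol fell. Fdft1, squalene synthase, had 15.8, 16.5 and 14.0 CPM in Sms-OE and 25.6, 22.2 and 19.7 CPM in the controls (log2 -0.54 ± 0.13, adjusted p = 0.0139). Sqle, squalene epoxidase, a rate-limiting enzyme of the pathway, had 20.0, 19.6 and 16.0 CPM in Sms-OE and 35.9, 24.8 and 22.4 CPM in the controls (log2 -0.58 ± 0.18, adjusted p = 0.0353). Lss, lanosterol synthase, had 11.1, 9.01 and 9.35 CPM in Sms-OE and 16.7, 15.8 and 14.8 CPM in the controls (log2 -0.68 ± 0.14, adjusted p = 0.00561). The groups did not overlap for any of the 3, but control replicate 1 was far above the other controls for Sqle, whose call held in 1 of the 6 fits without a single library, the one without control replicate 3. Fdft1 overlaps Ctsb on the opposite strand, and Ctsb had at least 1390 CPM in every library. Because the strand setting of the counting is not given, reads of the overlap could not be assigned with certainty. Cyp51 and Akap9, and Hmgcs1 and Gm48342, are placed likewise. Mvd, Idi1, Lss, Acaca, Elovl6, Acss2 and Me1 also overlap genes on the opposite strand. Of the 50-base stretches of Fdft1, 10.9% also occur in Gm6781, which had at most 0.0668 CPM.

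Of the 8 genes after lanosterol 6 fell, among them the gene with the largest fall of any member. Dhcr7, which makes the last reduction to cholesterol (chromosome 7, 143823145 to 143848410), had 12.8, 9.96 and 8.98 CPM in Sms-OE and 25.3, 21 and 20.2 CPM in the controls, a 2.09-fold lower level (log2 -1.07 ± 0.16, adjusted p = 0.00157). Hsd17b7, a ketosteroid reductase of the demethylation at C4 (chromosome 1, 169949535 to 169969241), had 3.77, 2.93 and 3.09 CPM in Sms-OE and 6.85, 6.34 and 6.60 CPM in the controls, a 2.02-fold lower level (log2 -1.01 ± 0.19, adjusted p = 0.0045). For both genes the lowest control lay well above the highest Sms-OE library. Msmo1, the C4 methyl oxidase, had 18.3, 16.4 and 11.2 CPM in Sms-OE and 33.7, 27.9 and 25.9 CPM in the controls (log2 -0.93 ± 0.18, adjusted p = 0.00484). Nsdhl, the dehydrogenase that acts between these enzymes, had 10.1, 10.5 and 7.63 CPM in Sms-OE and 17.7, 14.8 and 14.4 CPM in the controls (log2 -0.73 ± 0.16, adjusted p = 0.00873). All 3 genes of the C4 demethylation therefore fell, with no overlap between groups. Cyp51, lanosterol demethylase, had 32.7, 36.5 and 38.5 CPM in Sms-OE and 64.1, 52.4 and 51.1 CPM in the controls (log2 -0.64 ± 0.11, adjusted p = 0.0032). Ebp, the sterol isomerase, had 29.9, 31.9 and 28.4 CPM in Sms-OE and 41.4, 40.4 and 44.8 CPM in the controls (log2 -0.49 ± 0.096, adjusted p = 0.00511).

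A pair of enzymes after lanosterol did not pass. Sc5d, the desaturase that acts just before Dhcr7, had 52.2, 50.5 and 47.4 CPM in Sms-OE and 60.6, 49.5 and 47.0 CPM in the controls (log2 -0.07 ± 0.11, adjusted p = 0.700). Its Sms-OE values all lay within the control range, so that the CPM of Dhcr7 was 0.246, 0.197 and 0.19 times that of Sc5d in Sms-OE and 0.418, 0.425 and 0.430 times in the controls. The difference between the changes of Dhcr7 and Sc5d was not tested. Tm7sf2, a sterol reductase, had 3.21, 2.35 and 4.70 CPM in Sms-OE and 4.98, 4.35 and 5.10 CPM in the controls (log2 -0.49 ± 0.27, adjusted p = 0.204). Its size of difference equals that of Ebp, but at a low level its libraries scatter more, and Sms-OE replicate 3 lies among the controls.

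Neither of the listed genes that control the pathway passed the test. Srebf2, which encodes SREBP-2, had 130, 138 and 163 CPM in Sms-OE and 148, 146 and 110 CPM in the controls (log2 0.10 ± 0.13, adjusted p = 0.636). Insig1, which retains SREBPs in the endoplasmic reticulum and is itself a classical SREBP target, had 52.6, 46.6 and 45.9 CPM in Sms-OE and 49.3, 53.3 and 44.8 CPM in the controls (log2 -0.02 ± 0.10, adjusted p = 0.899). The groups overlapped for both genes, and the sign of either value changed with the scaling or with the libraries used. Stard4, a sterol carrier protein of the cytosol, had 27.0, 24.0 and 24.8 CPM in Sms-OE and 34.5, 33.3 and 31.8 CPM in the controls, and fell (log2 -0.40 ± 0.099, adjusted p = 0.0156). Without these 3 genes 15 of 18 sterol enzymes fell, with a median log2 fold change of -0.65.

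**Figure D2:**
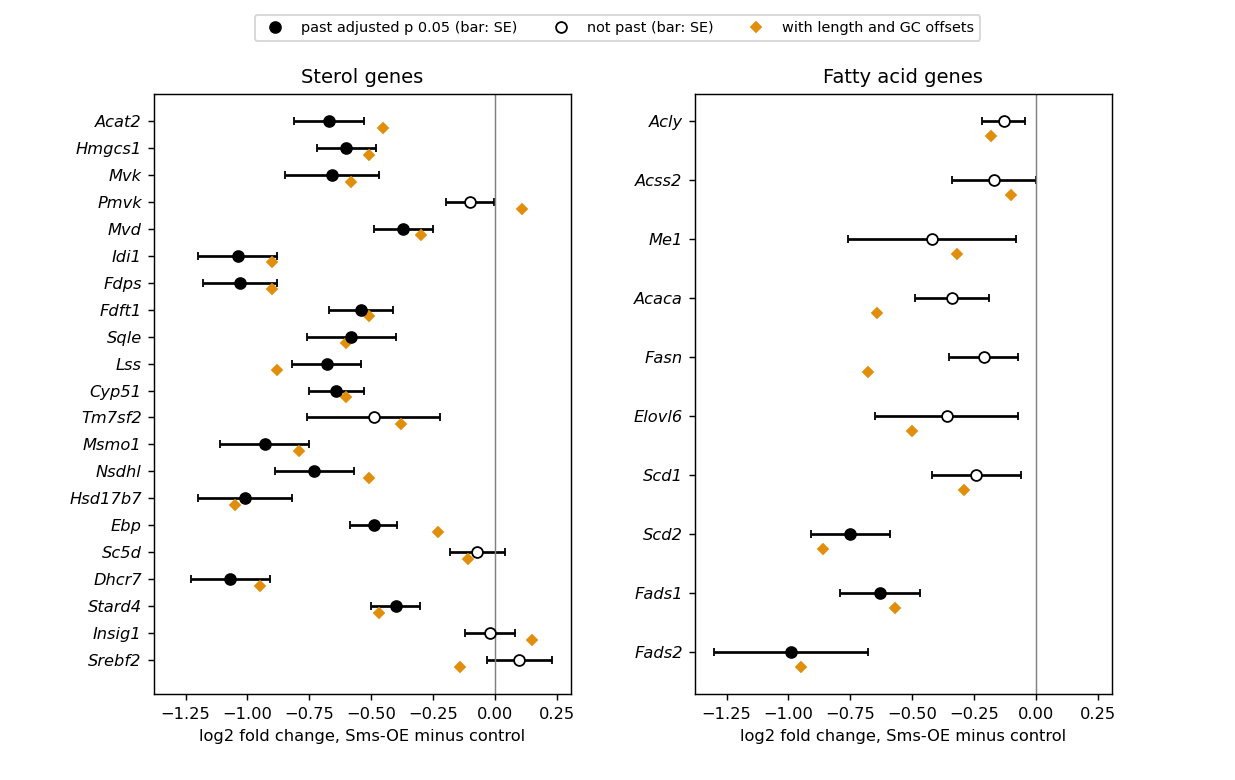
Log2 fold change of each member, Sms-OE minus control, with its standard error as a bar and filled circles for genes past an adjusted p of 0.05 in edgeR's test, and orange diamonds for the same value after offsets for transcript length and GC content. Dhcr7, Idi1, Fdps and Hsd17b7 are near -1 in either fit, while Fasn and Acaca are at -0.21 and -0.34 without offsets and at -0.68 and -0.64 with them.

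Among fatty acid genes, the 4 desaturases held all 3 falls. Scd2, a stearoyl-CoA desaturase that makes monounsaturated fatty acids (chromosome 19, 44293674 to 44306864), had 158, 123 and 112 CPM in Sms-OE and 258, 225 and 178 CPM in the controls, a 1.68-fold lower level with no overlap (log2 -0.75 ± 0.16, adjusted p = 0.00679). Its neighbour Scd1 (chromosome 19, 44394455 to 44407879), which catalyses the same reaction, had 24.8, 14.6 and 20.9 CPM in Sms-OE and 26.9, 20.5 and 23.7 CPM in the controls and did not pass (log2 -0.24 ± 0.18, adjusted p = 0.388). Scd2 was the more abundant of the pair in every library, and its CPM was 6.34, 8.39 and 5.36 times that of Scd1 in Sms-OE and 9.57, 11 and 7.51 times in the controls. These ratios overlap between the groups, and the difference between both genes' changes was not tested.

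The desaturases of polyunsaturated fatty acids, Fads1 and Fads2, lie next to each other on chromosome 19. Fads1, the delta-5 desaturase (10182888 to 10196877), had 18.8, 15.2 and 13.3 CPM in Sms-OE and 28.7, 23.0 and 21.4 CPM in the controls (log2 -0.63 ± 0.16, adjusted p = 0.0171). Fads2, the delta-6 desaturase (10062765 to 10101746), had 8.76, 4.70 and 5.56 CPM in Sms-OE and 18.5, 10.9 and 8.42 CPM in the controls (log2 -0.99 ± 0.31, adjusted p = 0.0432). Fads2 had the largest fitted difference of the 10 fatty acid genes and also a wide spread: Sms-OE replicate 1 lay above control replicate 3, and control replicate 1 above all others. Its call held in 2 of the 6 fits without a single library, while that of Fads1 held in 4 and that of Scd2 in all 6.

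The genes that supply and assemble saturated fatty acids did not pass. Acly, which splits citrate into acetyl-CoA, had 304, 285 and 278 CPM in Sms-OE and 325, 324 and 299 CPM in the controls (log2 -0.13 ± 0.087, adjusted p = 0.317). Acaca, acetyl-CoA carboxylase, had 20.7, 16.9 and 17.4 CPM in Sms-OE and 27.0, 22.8 and 19.5 CPM in the controls (log2 -0.34 ± 0.15, adjusted p = 0.116). Fasn, fatty acid synthase, had 62.6, 48.7 and 53.6 CPM in Sms-OE and 75.7, 63.7 and 51.2 CPM in the controls (log2 -0.21 ± 0.14, adjusted p = 0.321). In each of the 3 the highest Sms-OE library, replicate 1, lay above the lowest control, replicate 3. The values for Acss2, which makes acetyl-CoA from acetate, were 18.6, 14.1 and 23.6 CPM in Sms-OE and 21.2, 21.5 and 20.7 CPM in the controls (log2 -0.17 ± 0.17, adjusted p = 0.5). Elovl6, an elongase of saturated chains, had 7.68, 4.32 and 6.14 CPM in Sms-OE and 10.6, 7.56 and 5.10 CPM in the controls (log2 -0.36 ± 0.29, adjusted p = 0.392). Me1, malic enzyme, a source of NADPH, was the least abundant at 4.36, 2.59 and 1.74 CPM in Sms-OE and 4.89, 3.74 and 2.98 CPM in the controls (log2 -0.42 ± 0.34, adjusted p = 0.406). Over these 6 genes the median log2 fold change was -0.27, against -0.69 over the 4 desaturases. Of the 50-base stretches of Acaca, 52.6% also occur in Gm5182, and of those of Me1 24.3% in Gm7049, so that their counts are less certain.

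The gap between the medians of sterol and fatty acid genes was not seen once transcript length and GC content were taken into account. The longest annotated transcript had a median of 3.03 kb for the sterol genes and 4.63 kb for the fatty acid genes, against 2.82 kb for all genes tested, and Fasn and Acaca, at 10.1 and 9.51 kb, were the longest members. With per-library offsets for length and GC, 14 of 21 sterol genes were lower with a median of -0.51 and 4 of 10 fatty acid genes with a median of -0.54, where 9.67% of all genes were lower, 11.4% higher and the median over all genes was 0.07. Fasn (log2 -0.68, adjusted p = 0.00621) and Acaca (log2 -0.64, adjusted p = 0.00787) were called lower in that edgeR fit, while Fads2 (adjusted p = 0.0587), Ebp (adjusted p = 0.0781) and Mvd (adjusted p = 0.112) were not.

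On the scale of CPM per kb of transcript, the most abundant member was Acly, at 65.3 in Sms-OE and 71.4 in the controls. Next in Sms-OE came Srebf2 (28.3, against 26.5 in the controls), Pmvk (27.8, against 29.8 in the controls) and Scd2 (24.0, against 40.4 in the controls). In the controls Scd2 stood next after Acly. At the low end, Hsd17b7 was at 0.708 CPM per kb in Sms-OE and 1.43 in the controls, and Me1 at 0.880 in Sms-OE and 1.18 in the controls. Falls occurred near both ends of this range. The smallest count of any member in a library was 90, for Me1 in Sms-OE replicate 3.

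The libraries of a group differed from each other in the same direction for most members. Control replicate 1 was the highest control for 26 of 31 members and control replicate 3 the lowest for 24. In Sms-OE, replicate 1 was the highest for 20 members, including 9 of 10 fatty acid genes, and replicate 3 the lowest for 16. The mean log2 CPM of the sterol list was 4.24, 4.14 and 4.11 in Sms-OE and 4.88, 4.70 and 4.63 in the controls, so the groups did not overlap. For the fatty acid list it was 4.72, 4.22 and 4.34 in Sms-OE and 5.13, 4.83 and 4.61 in the controls, and Sms-OE replicate 1 exceeded control replicate 3. The sterol mean minus the fatty acid mean was -0.48, -0.08 and -0.23 in Sms-OE and -0.25, -0.13 and 0.02 in the controls. These differences overlap between the groups.

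Single libraries moved the counts. Without control replicate 1 the number of sterol genes that fell was 11, without control replicate 2 it was 12, without any 1 Sms-OE library 13 and without control replicate 3 15. Over all genes, each of these fits also called fewer lower than the 2615 of the reported fit. At an unadjusted p under 0.05 these fits had 15 to 17 sterol genes lower. Of all 18967 to 19203 genes tested in them, 3256 to 3728 were lower at that threshold. Hmgcs1, Idi1, Fdps, Lss, Cyp51, Msmo1, Nsdhl, Hsd17b7, Ebp, Dhcr7, Acat2 and Scd2 kept their calls in all 6 of these fits. Of the fatty acid genes only Scd2 was called without control replicate 1 or without Sms-OE replicate 3. The fatty acid median was -0.19 without control replicate 1 and -0.23 without Sms-OE replicate 2. With both haemoglobin-rich libraries left out, Sms-OE is a single library assumed to vary like the controls. In that fit 28 of 31 members still had a negative log2 fold change, with Idi1 at -0.76, Fdps at -0.76, Cyp51 at -0.78 and Dhcr7 at -0.80. The sterol and fatty acid medians of that fit were -0.52 and -0.11.

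**Figure D3:**
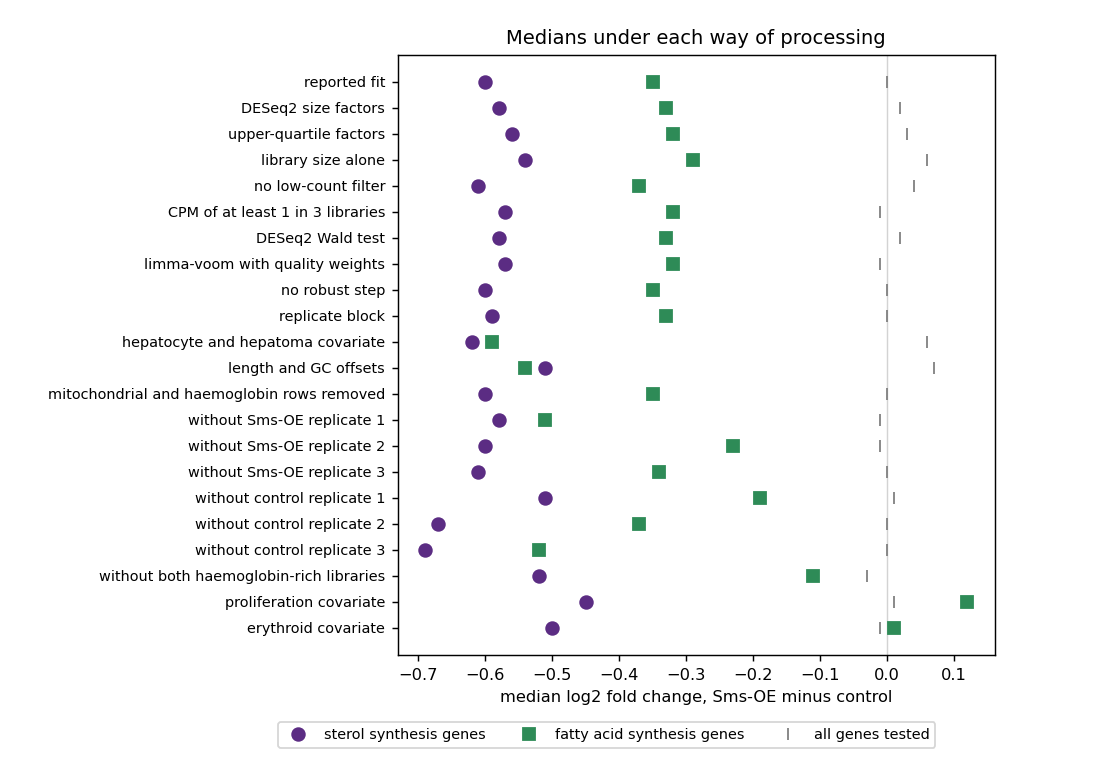
Median log2 fold change, Sms-OE minus control, of the sterol members (purple circles), the fatty acid members (green squares) and all genes tested (grey ticks) in the reported fit and in each other way of processing. The sterol median stays between -0.69 and -0.45 throughout, while the fatty acid median runs from -0.59 with the hepatocyte and hepatoma covariate to 0.12 with the proliferation covariate.

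Markers of other cells were read from the same comparison, in which 14.3% of all genes tested were lower and 12.5% higher. Among genes with a mean of at least 3.38 CPM the shares were 20.7% and 16.5%. The marker lists are short, so a count called in a list can lie near these shares. Hepatocyte markers summed to 331, 304 and 217 CPM in Sms-OE and 538, 556 and 695 CPM in the controls, and 8 of 10 fell; Alb, of albumin, was at 226, 211 and 142 CPM in Sms-OE and 362, 358 and 465 CPM in the controls. Hepatoma markers summed to 68.8, 69.8 and 49.3 CPM in Sms-OE and 88.1, 72.0 and 88.0 CPM in the controls, 2 of 4 tested fell, and Igf2 was at 0 in every library. Neither sum overlapped between the groups. Proliferation markers summed to 393, 293 and 375 CPM in Sms-OE and 510, 409 and 389 CPM in the controls; of 6, Cdk1, Mcm5 and Rrm2 fell and Mki67 rose. Kupffer cell markers, of the resident macrophages of the liver, summed to 309, 418 and 362 CPM in Sms-OE and 124, 130 and 141 CPM in the controls, and 5 of 5 rose. Erythroid markers summed to 216, 5042 and 5005 CPM in Sms-OE and 43.2, 96.9 and 189 CPM in the controls, and 0 of 5 passed (5 higher at an unadjusted p under 0.05). Of other marker lists, those of dendritic cells had 2 of 6 lower and 1 higher, of neutrophils 2 of 6 higher, of T and NK cells 1 of 6 higher, of endothelial cells 3 of 5 lower and 1 higher, and of stellate cells and fibroblasts 2 of 4 higher, while B cell markers had 0 of 3 past the threshold (0 at an unadjusted p under 0.05). The neutrophil markers that rose were Mpo and Elane. The other 4 had negative log2 fold changes, among them the abundant S100a8 (-0.68) and S100a9 (-0.74), and did not pass. Mitochondrial transcripts took 3.12%, 2.42% and 2.15% of counts in Sms-OE and 4.99%, 5.78% and 7.13% in the controls. Within the controls, hepatocyte markers were highest in replicate 3, the library lowest for most members, and proliferation and sterol levels were both highest in replicate 1. Within Sms-OE the hepatocyte order was the other way. Mean log2 CPM of hepatocyte markers and of sterol members both fell from replicate 1 (1.53 and 4.24) to replicate 3 (0.53 and 4.11). Proliferation markers were again highest in replicate 1. The part of these cells in the falls of the members was not tested, and with 3 libraries a group it cannot be told apart from the group itself: with the mean hepatocyte and hepatoma level as a covariate, whose correlation with the group was -0.96, edgeR called 0 of 18277 genes, against 610 lower and 746 higher at an unadjusted p under 0.05.

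**Figure D4:**
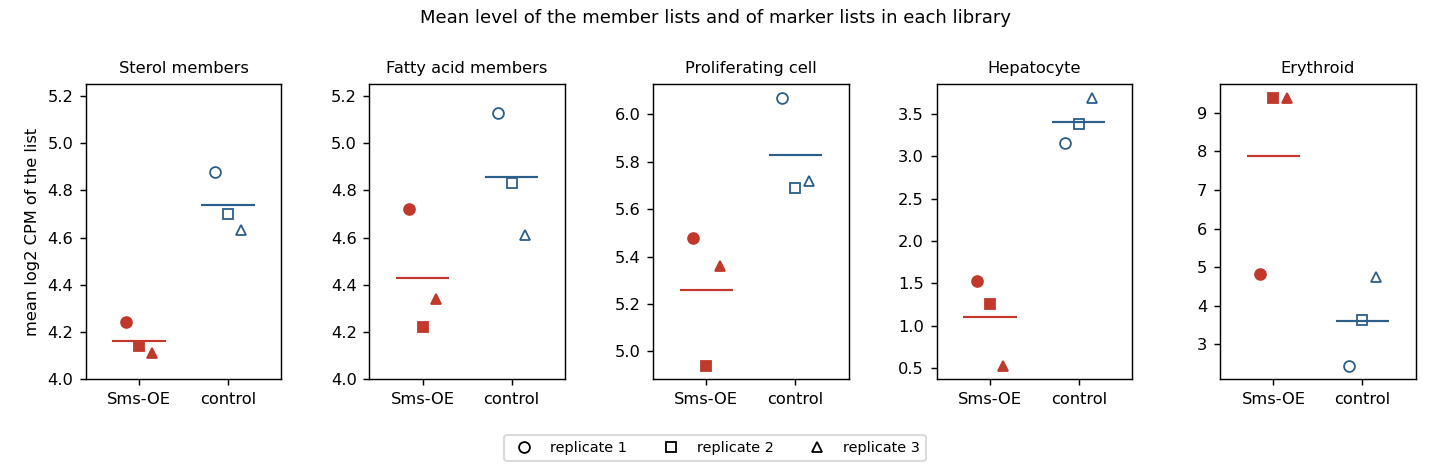
Mean log2 CPM of the sterol members, the fatty acid members and 3 marker lists in each library, with filled red symbols for Sms-OE, open blue symbols for controls, symbol shapes for replicates, horizontal lines for group means, and a scale of its own for each marker list. Sterol means run from 4.11 to 4.24 in Sms-OE and from 4.63 to 4.88 in the controls, while fatty acid means overlap at 4.72 in Sms-OE replicate 1 and 4.61 in control replicate 3.

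Of 47 other genes of sterol and fatty acid metabolism that are not members, 42 were tested, of which 8 fell, 3 rose and 31 did not pass, with a median log2 fold change of -0.05. Over all genes tested, 14.3% were lower and 12.5% higher. Among those with a mean of at least 3.38 CPM, the shares were 20.7% and 16.5%. Among other enzymes 5 of 19 fell and 0 rose by edgeR, with 6 lower and 0 higher at an unadjusted p under 0.05. Acat1, the mitochondrial thiolase, fell by 0.84 ± 0.11 on the log2 scale (adjusted p = 0.000733), and Slc25a1, the citrate carrier that brings acetyl units to the cytosol, by 0.69 ± 0.12 (adjusted p = 0.00253). Hsd17b12, Tecr and Elovl1, of the elongation of long chains, had log2 fold changes of -0.37, -0.32 and -0.24 (adjusted p = 0.0419, 0.022 and 0.0461), and none of these 3 calls held with the length and GC offsets, where the values were -0.12, -0.11 and -0.01.

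Of 10 tested genes of SREBP control 1 fell, where 14.3% of all genes tested fell. It was Erlin2, of the machinery that degrades sterol-sensing proteins (log2 -0.45 ± 0.11, adjusted p = 0.0154). Erlin2 missed the threshold when control replicate 1 (adjusted p = 0.0595) or 2 (adjusted p = 0.0639) was left out, and with library size alone (adjusted p = 0.0634). Srebf1, of SREBP-1, had a log2 fold change of 0.08 ± 0.12 (adjusted p = 0.688) and Scap, the escort of the SREBPs, of 0.32 ± 0.12 (adjusted p = 0.0672). Scap was called higher with the replicate block (adjusted p = 0.0334), library size alone, the CPM filter, the DESeq2 Wald test and without Sms-OE replicate 1 (adjusted p between 0.0266 and 0.0429 over these 5 fits), while offsets for length and GC gave 0.13 (adjusted p = 0.438). Lpin1, an SREBP target, had a log2 fold change of 0.20 ± 0.15 (adjusted p = 0.352) and did not pass.

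On the oxysterol side, 3 genes rose and 2 fell of 12, where 12.5% of all genes tested rose and 14.3% fell. Abca1, the cholesterol exporter, had 208, 169 and 189 CPM in Sms-OE and 59.2, 61.0 and 51.1 CPM in the controls (log2 1.72 ± 0.11, adjusted p = 4.8e-05). Mylip, which encodes the ubiquitin ligase IDOL, had 71.4, 85.2 and 71.5 CPM in Sms-OE and 33.1, 41.1 and 42.7 CPM in the controls (log2 0.96 ± 0.12, adjusted p = 0.00062). Both are LXR targets, and the groups did not overlap for either. Abcg1, another exporter under LXR, did not pass (log2 -0.21 ± 0.080, adjusted p = 0.0741), but was called lower with the length and GC offsets (log2 -0.39, adjusted p = 0.00551). Nr1h3, of LXR-alpha, fell (log2 -0.82 ± 0.088, adjusted p = 0.000326), while Nr1h2, of LXR-beta, did not pass (log2 0.28 ± 0.097, adjusted p = 0.0585). The Nr1h2 call depended on the setting: it was called higher under all 3 other scalings, the CPM filter, the DESeq2 Wald test, the length and GC offsets and without Sms-OE replicate 1, with adjusted p between 0.0202 and 0.0487. The lysosomal cholesterol carriers moved in opposite directions: Npc1 rose by a log2 fold change of 0.39 ± 0.086 (adjusted p = 0.00869) and Npc2 fell (log2 -0.36 ± 0.085, adjusted p = 0.0115), the second call being lost without control replicate 2 (adjusted p = 0.0517).

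**Figure D5:**
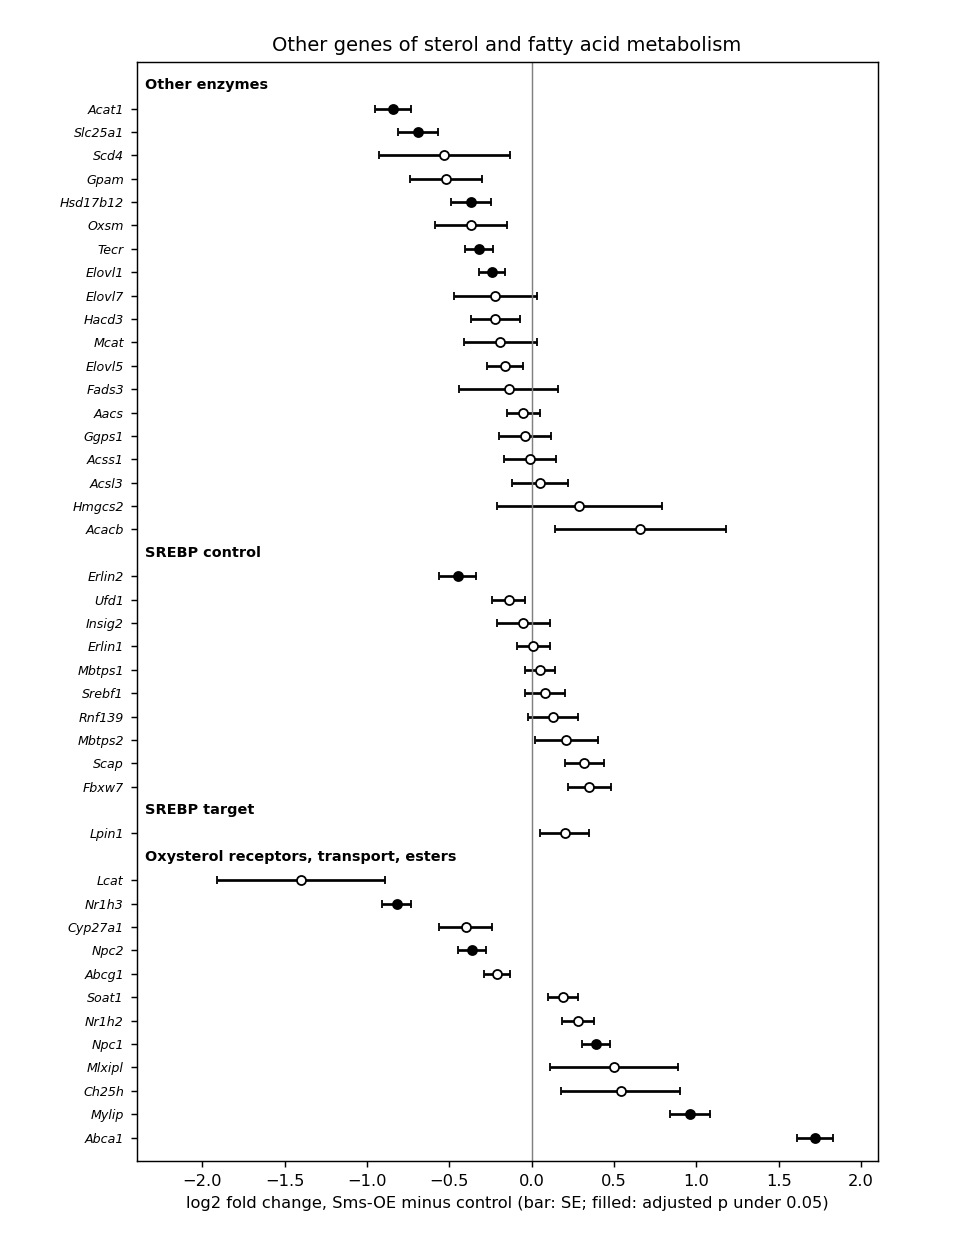
Log2 fold change, Sms-OE minus control, of the 42 tested genes of sterol and fatty acid metabolism that are not members, with standard errors as bars and filled circles for an adjusted p under 0.05 in edgeR's test, ordered within 4 groups. Abca1 at 1.72 and Mylip at 0.96 stand farthest to the right among the filled circles, and Acat1 at -0.84 and Nr1h3 at -0.82 farthest to the left.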

How the data were processed

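The deposited values are estimated counts per gene, whole numbers without normalization. The tools named, per the submitters' processing notes, are HISAT2 2.2.1, StringTie 2.1.6, cutadapt 1.9, DESeq2 and FastQC 0.11.9. Build, annotation and strand setting of the counting were not given in the sources used here. Per the labels' protocols, libraries were made by oligo(dT) selection with dUTP. More genes of control replicate 1 held the value 4 (1008) than 3 (580) or 5 (352), so counting error is uncertain.

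Groups and replicate numbers came from the titles. Symbols, coordinates and transcript lengths came from GENCODE M21 by identifier, for 55141 of 55401 identifiers; the rest held at most 0.0125% of counts. Genes were tested with edgeR 4.0.16 in R 4.3.3 (filterByExpr, TMM, robust glmQLFit and glmQLFTest on group alone), with Benjamini-Hochberg adjustment over 18277 genes and a threshold of 0.05. Fold changes have a prior count of 0.125, standard errors come from the F statistic, and list means have a prior count of 2. The members, the gene lists and the naming rule (every member, and called genes of the other list) were chosen with earlier results of these data known, so list counts and medians carry no test. Outside that rule, Srebf1, Scap, Lpin1, Abcg1 and Nr1h2 of the other list are named although they did not pass the threshold. Idi2, Elovl3, Scd3 and Thrsp had counts too low to test, and Spring1 matched no symbol; some other genes of that list are not reported here. Alternatives were other scalings, filters and tests (DESeq2 1.42.0, limma 3.58.1), a replicate block, a hepatocyte and hepatoma covariate, length and GC offsets, removal of mitochondrial and haemoglobin genes, and each library left out. Added after seeing the data were proliferation and erythroid covariates and leaving out both haemoglobin-rich libraries. The steps were tested on simulated counts.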

Additional observations from a re-analysis of the deposited data

How the results depend on the processing

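Under 3 other scalings, 2 other filters, the DESeq2 Wald test, limma-voom, no robust step and removal of mitochondrial and haemoglobin genes, 12 to 16 sterol and 2 or 3 fatty acid genes were lower and 0 higher; library size alone gave 12 and 2, and no filter 16 and 2. The same-numbered libraries did not deviate together (correlations 0.0646, 0.0196 and -0.00754), and with the replicate number as a block 15 sterol genes (Mvd lost, adjusted p = 0.0558) and 3 fatty acid genes were lower, with medians of -0.59 and -0.33 and 2415 genes lower and 2117 higher in all. At a threshold of 0.01, 11 sterol genes and 1 fatty acid gene were lower, and 1219 genes lower and 1077 higher in all. Leaving out a single library gave 11 to 15 sterol and 1 to 3 fatty acid genes lower, and 1684 to 2473 lower and 1366 to 2015 higher genes in all. In those fits Insig1 was between -0.10 and 0.03, Srebf2 between -0.04 and 0.16 and Sc5d between -0.15 and 0.05, and none of these passed. Without both haemoglobin-rich libraries 4 sterol and 0 fatty acid genes were lower (1 fatty acid gene at an unadjusted p under 0.05), with 694 lower and 690 higher in all.

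Each covariate ran with the group (correlations -0.96, -0.81 and 0.79) and left 0 members called. With hepatocyte and hepatoma markers 0 genes were lower and 0 higher in all, and the medians were -0.62 and -0.59. With proliferation markers the sterol and fatty acid medians were -0.45 and 0.12 (631 genes lower and 566 higher in all), and with erythroid markers -0.50 and 0.01 (313 lower and 390 higher). At an unadjusted p under 0.05, 8 sterol genes were lower in each of these fits. Over all 18277 genes that threshold gave 2287 lower and 1992 higher with proliferation markers, and 2080 lower and 1886 higher with erythroid markers. The cause of these shifts was not tested.

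Values that changed sign, none of them past the threshold, were as follows. Insig1 was 0.01 with upper-quartile factors, 0.04 with library size alone, 0.01 with a CPM of at least 1, 0.05 with the hepatocyte covariate, 0.15 with length and GC offsets, 0.09 without both haemoglobin-rich libraries, 0.06 with the proliferation and 0.16 with the erythroid covariate. Srebf2 was -0.96 with the hepatocyte covariate, -0.14 with the offsets and -0.05 without both haemoglobin-rich libraries, and Pmvk was 0.11 with the offsets. Me1 was 0.79 with the hepatocyte covariate, and Me1 and Scd1 were 0.16 and 0.06 without both haemoglobin-rich libraries. With the proliferation covariate Sc5d was 0.12, Fasn 0.22, Acaca 0.01, Elovl6 0.56, Scd1 0.40, Acss2 0.18, Me1 0.19 and Fads2, lower in the reported fit, 0.06. With the erythroid covariate Sc5d was 0.12, Fasn 0.19, Acaca 0.02, Elovl6 0.40, Scd1 0.18 and Me1 0.53.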
